A study of Mus musculus with 10 samples.

Results

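Osteocalcin is the small vitamin K-dependent protein of bone matrix, and the mouse carries 3 neighbouring genes for it or its close relative, Bglap, Bglap2 and Bglap3. The levels of these 3 copies and of 7 further bone and cartilage genes, Col1a1, Ibsp, Col2a1, Sp7, Dmp1, Spp1 and Runx2, were followed in all libraries by genotype. All 10 genes were rows of the raw count table of 24421 rows, and all 10 passed the filter on low counts that left 17197 genes for testing. Bglap3 was selected on its difference between homo and het libraries, so its values in the contrasts with homo libraries are given as a description, and the other members were chosen as bone genes to set beside it.

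The libraries were made from poly(A)-selected RNA of the main olfactory epithelium (MOE), the sheet of olfactory neurons, supporting cells and glands in the nose, of C57BL/6 mice at postnatal day 14. The groups were 3 WT libraries from wild-type mice, 3 het libraries from mice with TAAR enhancers 1 and 2 deleted on 1 allele, and 4 homo libraries from mice with both enhancers deleted on both alleles. The labels give no treatment for any group, the deletions were made by CRISPR-Cas9 in the germline and are present in every cell, and all mice came from 1 double knockout line described as littermates. For its mouse lines as a whole the study also states a mixed strain background. The paper counts the replicates of this experiment as littermates, and its counts match the numbers of libraries in the groups. The libraries are therefore taken to come from separate mice, and p-values measure the spread between libraries.

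Depth ranged from 21423861 to 27712948 counts per library. Counts of the Taar2 to Taar9 genes, whose enhancers were deleted, were 738 to 915 in WT and het libraries and 2 to 5 in homo libraries. Omp, the marker of mature olfactory neurons, lay between 3572 and 4861 CPM, the counts of a gene scaled to an equal total in every library, so the labelled tissue was there. Counts of Y genes were above 1000 in 1 WT, 1 het and 2 homo libraries, so both sexes stood in each genotype. In a whole-tissue sample fewer cells of a type and less RNA per cell cannot be told apart.

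The bony turbinates lie directly under the olfactory mucosa, and osteoblasts build them. In osteoblasts the transcription factor Runx2 acts upstream of the zinc finger factor Sp7 (osterix), and both are needed for bone to form. Mature osteoblasts secrete type I collagen and the matrix proteins that bind mineral, among them osteocalcin, bone sialoprotein and osteopontin, while Dmp1 is typical of osteocytes, the cells buried in bone. Osteocalcin binds calcium through glutamates that the enzyme Ggcx carboxylates with vitamin K.

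The 3 copies lie on the minus strand of chromosome 3 of mm10 one after another, Bglap3 at chr3:88368616-88372743, Bglap2 at chr3:88377736-88378699 and Bglap at chr3:88383501-88384464, in the GENCODE annotation. Each coding sequence spans 4 exons and has 288 bases including the stop codon. The sequences are shown because they set how far a read can be given to 1 copy, and capitals mark the bases at which a copy differs from both others.
Bglap: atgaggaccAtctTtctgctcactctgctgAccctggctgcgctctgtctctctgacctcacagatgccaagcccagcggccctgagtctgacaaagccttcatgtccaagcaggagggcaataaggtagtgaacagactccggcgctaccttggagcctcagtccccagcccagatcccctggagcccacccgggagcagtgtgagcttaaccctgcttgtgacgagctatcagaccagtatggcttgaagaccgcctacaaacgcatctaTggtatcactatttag
Bglap2: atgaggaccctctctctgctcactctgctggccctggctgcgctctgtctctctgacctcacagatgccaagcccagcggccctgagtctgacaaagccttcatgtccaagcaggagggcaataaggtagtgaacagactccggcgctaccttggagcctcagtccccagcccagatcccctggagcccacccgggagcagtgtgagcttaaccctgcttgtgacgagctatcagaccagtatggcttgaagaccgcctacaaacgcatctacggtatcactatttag
Bglap3: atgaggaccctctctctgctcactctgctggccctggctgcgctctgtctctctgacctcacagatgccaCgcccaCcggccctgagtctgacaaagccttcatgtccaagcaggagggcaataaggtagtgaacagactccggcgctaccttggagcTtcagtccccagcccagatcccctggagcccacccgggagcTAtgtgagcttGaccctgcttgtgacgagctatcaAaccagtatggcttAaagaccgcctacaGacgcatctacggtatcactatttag
Bglap has 4 such bases, Bglap2 has 0 and Bglap3 has 9. Coding identity was therefore 98.61% between Bglap and Bglap2, 95.49% between Bglap and Bglap3 and 96.88% between Bglap2 and Bglap3. The differences of Bglap lie near both ends, and those of Bglap3 are spread between these, from the first part to the last.

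Outside the coding part Bglap3 differs more. Its annotated protein-coding transcripts have 717, 2051 and 1047 bases, against 440 for Bglap and 471 for Bglap2, because its untranslated first exons are longer and the 2 longest transcripts begin upstream with further exons. Of all stretches of 100 bases in the Bglap transcript, 56.3% also occurred in Bglap2, and 0% occurred in Bglap3. At 150 bases 31.6% of the Bglap stretches occurred in Bglap2. Of the stretches of 100 bases in the shortest Bglap3 transcript 3.24% occurred in either copy, and of those of 150 bases 0% did. A read of such a length from Bglap3 could thus be told from its copies nearly everywhere in these transcripts, while for Bglap and Bglap2 the share that cannot be told apart depends on the read length. How reads with several alignments were counted is not stated, and the read length is not given in the sources used here.

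**Figure D1:**
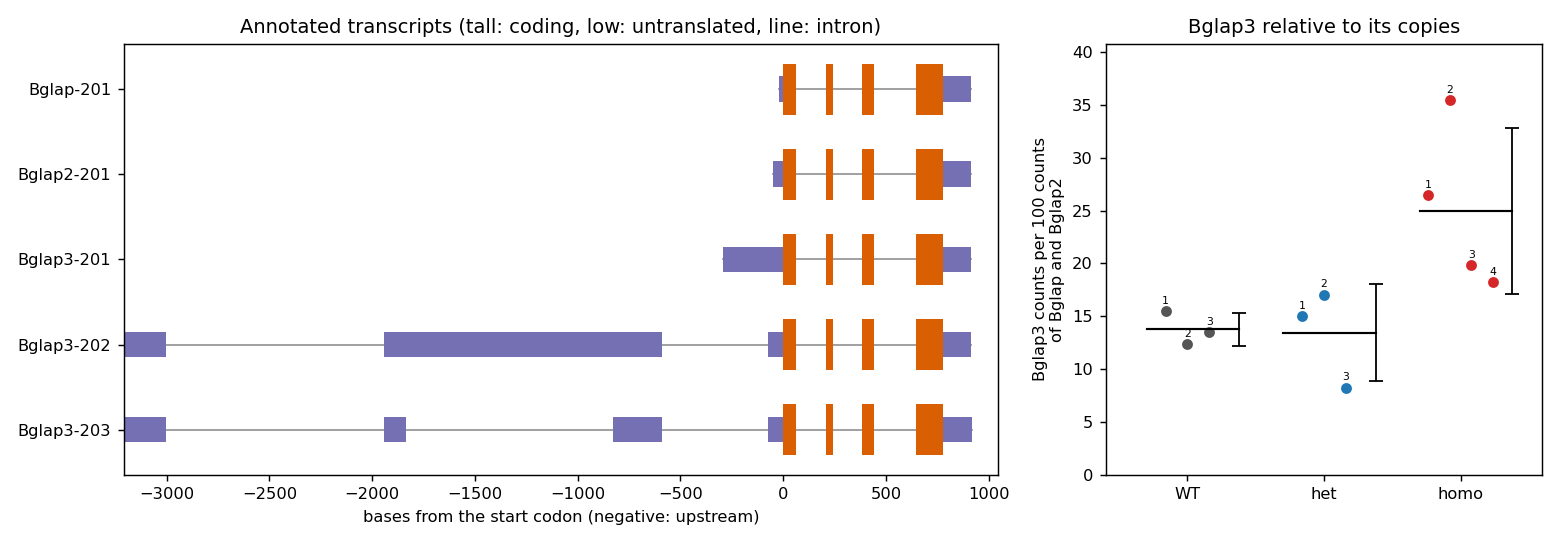
Left, annotated transcripts of the 3 copies by bases from the start codon, with coding parts in tall boxes, untranslated parts in low boxes and introns as lines; the 4 coding exons line up, and only Bglap3 has exons further upstream. Right, Bglap3 counts per 100 counts of Bglap and Bglap2 in each library (points, numbered by replicate) with the mean and SD per genotype; the 4 homo libraries lie between 18.2 and 35.5 and the other 6 between 8.26 and 17.1.

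The windows of 250 bases before annotated starts were taken from RefSeq (GRCm38.p6) for the 6 members with an entry there, which left Bglap2, Col1a1, Col2a1 and Sp7 without one. They were searched on both strands for the RUNX motif ACCACA and the TATA box letters TATAAA, which do not overlap. The windows of Bglap and of the most upstream Bglap3 start are shown with matches in capitals.
Bglap, chr3:88384467-88384716, minus strand: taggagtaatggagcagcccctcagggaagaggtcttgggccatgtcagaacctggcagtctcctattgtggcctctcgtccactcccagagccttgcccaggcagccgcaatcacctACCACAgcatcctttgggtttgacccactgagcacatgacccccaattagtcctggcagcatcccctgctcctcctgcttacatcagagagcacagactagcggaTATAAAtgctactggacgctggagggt
Bglap3, chr3:88372742-88372991, minus strand: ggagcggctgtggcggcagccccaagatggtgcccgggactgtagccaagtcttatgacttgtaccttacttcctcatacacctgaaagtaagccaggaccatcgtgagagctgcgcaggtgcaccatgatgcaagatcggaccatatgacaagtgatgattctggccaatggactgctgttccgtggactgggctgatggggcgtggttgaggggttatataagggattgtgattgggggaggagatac
The Bglap window held 1 match to each motif, and the 3 Bglap3 windows held 0 of either. Only these exact letters were searched, so near variants were not counted, such as the run tatataag in the Bglap3 window shown. Across 32851 promoter windows of the same length 14% held the RUNX letters and 12.4% the TATA letters. Of the 6 members with a window, 4 held a RUNX match, in Bglap, Dmp1, Spp1 and Runx2. This counts genes, and Bglap3, Dmp1 and Spp1 had several windows each, while the 14% counts single windows. A match is a description of letters and not evidence of binding.

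Bglap was at 51.6, 47.6 and 49.3 CPM in the WT libraries, at 45.01, 35.8 and 53.3 in het and at 50.7, 35.5, 47.7 and 52.0 in homo. Bglap2 followed it closely, with 50.03, 53.6 and 50.5 CPM in WT, 44.2, 34.9 and 56.0 in het and 52.0, 36.0, 49.96 and 49.5 in homo. The groups overlapped for both copies, and het-2 and homo-2 were the lowest libraries for each of them. Their ratio was alike in the 3 genotypes, with 99.2 ± 4.04 Bglap counts per 100 Bglap2 counts in homo (SD, n = 4), 99.9 ± 3.97 in het (n = 3) and 96.5 ± 7.24 in WT (n = 3). Homo against WT, the log2 fold change was -0.09 (95% interval -0.37 to 0.19) for Bglap and -0.13 (-0.42 to 0.17) for Bglap2, with an adjusted p of 1.00 for each by edgeR's quasi-likelihood test. Homo against het it was 0.06 for each, with intervals from -0.22 to 0.34 and from -0.23 to 0.36, so that changes within these bounds were left undecided.

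Bglap3 was at 15.7, 12.5 and 13.5 CPM in WT, at 13.4, 12.1 and 9.03 in het and at 27.2, 25.3, 19.3 and 18.5 in homo. All 4 homo libraries lay above all 6 others, with homo-1 and homo-2 highest and het-3 lowest. The raw counts behind these levels were 222 to 421 in WT and het libraries and 457 to 583 in homo libraries. As group levels this was 13.9 ± 1.65 CPM in WT, 11.5 ± 2.23 in het and 22.6 ± 4.33 in homo (SD, n = 3, 3 and 4). The fitted fold was 1.97 for homo against het (log2 0.98, SE 0.17, interval 0.62 to 1.35, adjusted p = 0.0394 by edgeR over all genes), which is the value that chose this gene. Against WT it was 1.63 (log2 0.71, SE 0.17, interval 0.35 to 1.06, unadjusted p = 0.000704, adjusted p = 0.757), and het against WT it was 0.826 (log2 -0.28, SE 0.18, adjusted p = 1.00). Leaving out the library het-3 brought the log2 change of homo against het to 0.83 (adjusted p = 0.284), leaving out homo-1 to 0.87 (0.166), and 8 of the 10 libraries, each left out alone, ended the call, all but homo-3 and homo-4.

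Relative to its copies Bglap3 gave 15.5, 12.4 and 13.5 counts per 100 counts of Bglap and Bglap2 in WT, 15.003, 17.1 and 8.26 in het and 26.5, 35.5, 19.8 and 18.2 in homo. The homo libraries again stood above the other 6, and the highest, homo-2, was the library with the lowest Bglap and Bglap2 of its group. The log2 ratio differed by 0.91 between homo and het, with an SD within groups of 0.49, and by 0.81 between homo and WT, with an SD of 0.35. Without het-3 the difference from het was 0.59. Per length of annotated exon Bglap2 was at 101 CPM per kilobase on average, Bglap at 75.8 and Bglap3 at 6.34, and Bglap3 reached 23.2 if its shortest coding transcript was taken as its length. When the counts of all 3 copies were added into 1 row, homo against het gave a log2 change of 0.20 (SE 0.11, adjusted p = 1.00), with Bglap3 holding the fewest of the counts.

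**Figure D2:**
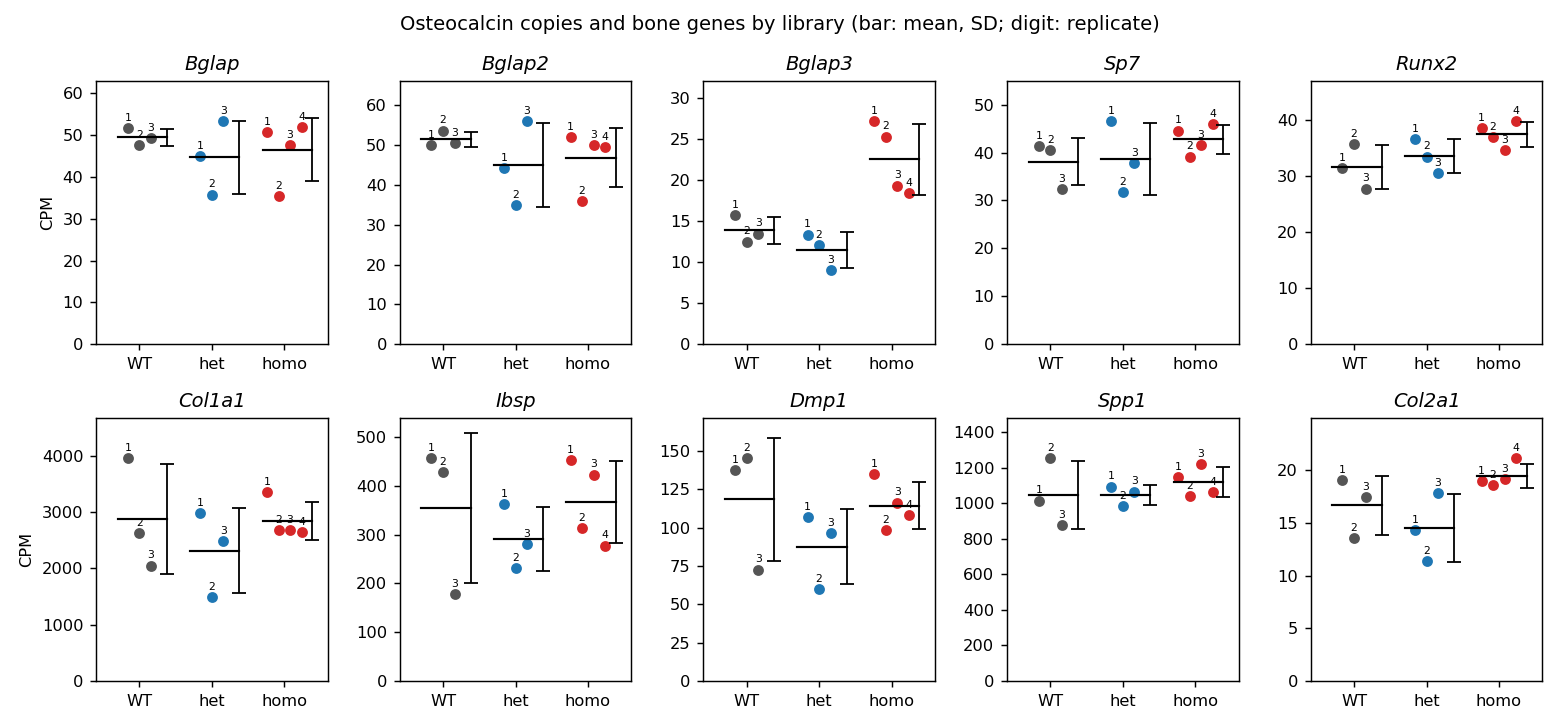
CPM of each member in each library (points, numbered by replicate) by genotype, with the mean (line) and SD (bar beside it); each vertical axis starts at 0. Bglap3 in the homo libraries, 18.5 to 27.2 CPM, lies above the WT and het libraries, while the groups of Bglap and Bglap2 overlap.

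Over the 10 members, 1 was called in homo against het, Bglap3, against a background of 0.0756% of the genes tested (13 of 17197), and this contrast made it a member. In homo against WT 0 members were called and 0.0698% of all genes were (12), and in het against WT 0 members were called and 0.00% of all genes, by edgeR. At an unadjusted p under 0.05 the members numbered 2, 2 and 0 in homo against WT, homo against het and het against WT, where 2.41%, 2.48% and 1.92% of all genes were under it. DESeq2 called 1, 0 and 0 members in homo against het, homo against WT and het against WT. Median log2 changes of the 9 members other than Bglap3 were 0.05, 0.17 and -0.19 in homo against WT, homo against het and het against WT, beside 0.00 over all genes in each. These contrasts share libraries, and a low het group enters the last 2 of them with opposite sign.

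Sp7 was at 41.4, 40.5 and 32.4 CPM in WT, 46.5, 31.7 and 37.8 in het and 44.6, 39.1, 41.5 and 45.9 in homo. Its groups overlapped, and the log2 change was 0.17 (SE 0.13) against WT and 0.15 (SE 0.13) against het, both with an adjusted p of 1.00. Runx2 was at 31.5, 35.8 and 27.8 CPM in WT, 36.6, 33.5 and 30.5 in het and 38.6, 36.9, 34.6 and 39.8 in homo. All homo libraries but homo-3 lay above every WT library, with a log2 change of 0.25 (SE 0.11, unadjusted p = 0.0347, adjusted p = 1.00) against WT and 0.17 (SE 0.11) against het. Runx2 overlaps Supt3 and antisense genes on the annotation, and Spp1 overlaps Gm42793, so reads of these rows may be shared where strand was not used in counting.

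Col1a1, a chain of type I collagen and the bulk of bone matrix, was by far the most counted member. It was at 3967, 2625 and 2051 CPM in WT, 2986, 1486 and 2487 in het and 3357, 2689, 2687 and 2647 in homo. The WT libraries ran from 2051 to 3967 CPM and all 10 from 1486 to 3967, the lowest being het-2. The log2 change of homo against WT was -0.01 with an interval from -0.60 to 0.57. Changes of this gene within that interval were left undecided, and the spread between WT libraries sets its width.

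Ibsp encodes bone sialoprotein, which binds hydroxyapatite. Its levels were 457, 428 and 178 CPM in WT, 362, 232 and 281 in het and 452, 314, 423 and 277 in homo. WT-3 was lowest of all, and the log2 change was 0.05 (SE 0.35) against WT and 0.34 (SE 0.35) against het. Dmp1, an acidic matrix phosphoprotein of osteocytes, was at 138, 145 and 72.5 CPM in WT, 107, 59.9 and 96.2 in het and 135, 98.4, 116 and 108 in homo. Like Ibsp it was lowest in WT-3 and het-2, and it gave a log2 change of -0.05 (SE 0.27) against WT and 0.39 (SE 0.27) against het.

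Spp1, osteopontin, is made by bone cells and also by many epithelial and immune cells. It was at 1015, 1256 and 877 CPM in WT, 1094, 984 and 1067 in het and 1149, 1043, 1222 and 1063 in homo, and it had the lowest coefficient of variation of the members over all libraries, 10.4%. Its log2 change was 0.10 (SE 0.12) in homo against WT and in homo against het. Per kilobase of exon it had the highest level of the members, 654 CPM per kilobase, ahead of Col1a1 at 411 and Ibsp at 165. The ranges of Spp1 (532 to 762) and Col1a1 (226 to 605) overlapped on this scale, and the lowest members were Runx2 at 3.91 and Col2a1 at 1.85.

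Col2a1, the type II collagen of cartilage, was at 19.1, 13.6 and 17.4 CPM in WT, 14.3, 11.4 and 17.9 in het and 19.0, 18.6, 19.1 and 21.2 in homo. The homo libraries lay wholly above het and overlapped WT. The log2 change against het was 0.43 (SE 0.15, unadjusted p = 0.0104, adjusted p = 1.00 by edgeR), and against WT 0.23 (SE 0.15). With Bglap3 it made 2 members with homo wholly above het, where 2.04% of all genes were so placed. In homo against WT Bglap3 was the single such member, beside 1.70% of all genes, and for het above WT there were 0 members, beside 2.94%.

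**Figure D3:**
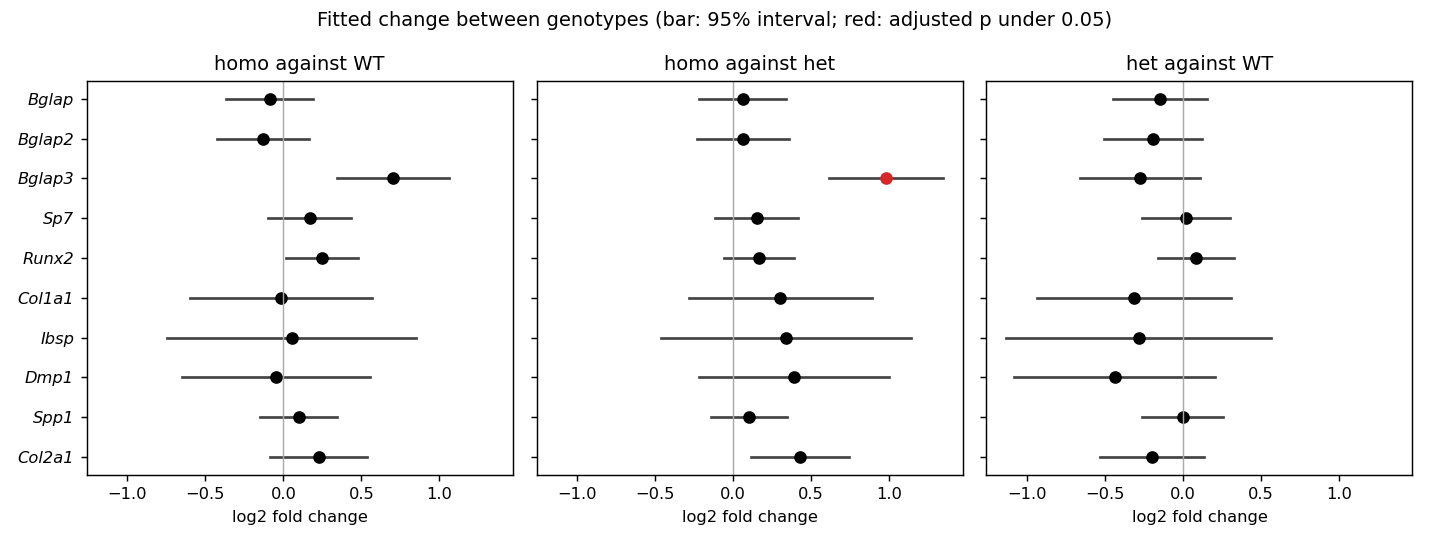
Fitted log2 fold changes of the members (points) with 95% intervals (bars) in the 3 contrasts; the red point has an adjusted p under 0.05. Bglap3 in homo against het, at 0.98, is the red point, and the intervals of Ibsp, Col1a1 and Dmp1 are the widest.

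The members fell into sets that varied together across libraries. Over the 10 libraries Bglap and Bglap2 had a Pearson r of 0.95 on log2 CPM (Spearman rho 0.77), which fell to 0.64 without the 2 libraries farthest from the median, het-2 and homo-2. The matrix genes Ibsp and Dmp1 had an r of 0.89 (rho 0.92), and Col1a1 and Dmp1 one of 0.88 (rho 0.75). For Bglap3 the 9 values of r with other members ran from -0.18 (Bglap2) to 0.63 (Runx2), and with Bglap it was -0.14. All these are descriptions over 10 libraries that share depth scaling, and no p is attached to them.

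The low Bglap and Bglap2 of het-2 and homo-2 came with other features of these libraries. Omp was lowest there as well, at 3572 and 3641 CPM against 3950 to 4861 elsewhere. In homo-2 genes with under 1 kb of exon stood lower, relative to genes with over 4 kb, than in any other library (log2 -0.28), while het-2 (-0.11) was not the next lowest, which was het-1 (-0.15). The 5 genes most like the sum of Bglap and Bglap2 among 15740 genes were Spire2 (r = 0.96), Arf5 (0.96), Eno3 (0.96), Atp6v0d1 (0.96) and Drap1 (0.95), with exons of 1739 to 2510 bases. None of these is a bone matrix gene, while among the members themselves Dmp1 ranked 2506th with an r of 0.56 and Runx2 10047th with -0.22. The part of RNA quality or library length in the levels of Bglap and Bglap2 was not tested.

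The genes most like Bglap3 over the 10 libraries were Gpd1 (r = 0.96), Klk14 (0.95), 2010300C02Rik (0.94), Dmbt1 (0.92) and Qsox1 (0.92). Gpd1 is a glycerol-3-phosphate dehydrogenase, Klk14 a secreted serine protease, Dmbt1 a scavenger glycoprotein of mucosal secretions and Qsox1 a sulfhydryl oxidase of the secretory pathway. Klk14 was at 6.31, 4.57 and 5.49 CPM in WT, 5.75, 3.995 and 2.11 in het and 10.97, 14.7, 6.35 and 8.48 in homo. As for Bglap3, het-3 was its lowest library, and homo stood wholly above the other genotypes by a narrow gap. Its log2 change against het was 1.37 (SE 0.33, adjusted p = 1.00). Dmbt1 was at 202, 154 and 110 CPM in WT, 170, 152 and 110 in het and 837, 386, 342 and 393 in homo, with a log2 change of 1.77 (SE 0.39, unadjusted p = 0.00219, adjusted p = 1.00) against het. These genes were picked for likeness to Bglap3 in the same libraries, and Bglap3 was selected on homo against het. Their own differences between homo and the other groups are therefore descriptions and no separate support. Taken as deviations from the genotype means, the likeness to Bglap3 was still 0.97 for Gpd1, 0.88 for Klk14 and 0.74 for Dmbt1. The best placed bone member, Runx2, ranked 459th of 15740 in likeness to Bglap3, and Spp1 3735th.

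**Figure D4:**
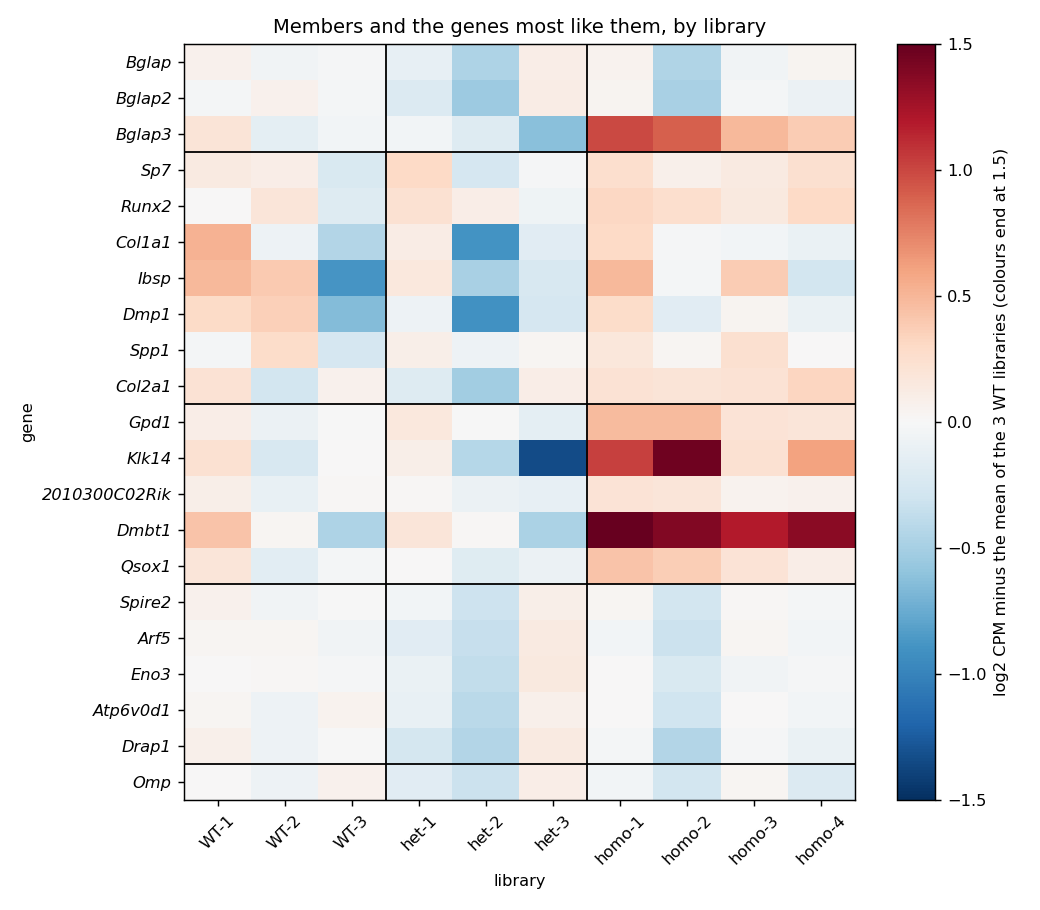
Log2 CPM minus the mean of the 3 WT libraries (colour) for each gene (rows) in each library (columns): the copies, the other members, the 5 genes most like Bglap3, the 5 most like the sum of Bglap and Bglap2, and Omp. Bglap3 and the genes like it are red in the homo columns, though only faintly for 2010300C02Rik. The red is also faint for Gpd1 and Qsox1 in homo-3 and homo-4 and for Klk14 in homo-3. Bglap and Bglap2 with their like genes are blue in het-2 and homo-2.

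Lists of marker genes of other cells were set beside these patterns. Summed over 13 genes of nasal glands and their secretions, among them the lipocalins Lcn3 and Lcn4 and the odorant-binding proteins Obp2a and Obp2b, expression was 9472, 7722 and 6951 CPM in WT, 9334, 8786 and 6578 in het and 17505, 14472, 11922 and 9176 in homo. The order of the 4 homo libraries was that of Bglap3, from homo-1 down to homo-4, and het-3 was lowest in both. Homo-4 stood below WT-1 and het-1, so the groups overlapped for this sum. Over the 10 libraries its log2 had an r of 0.92 with Bglap3 (rho 0.87) and of 0.41 with Col1a1, while the 20 osteoblast and bone matrix genes had one of 0.45 with Bglap3 and of 0.95 with Col1a1. The marrow and blood list, whose sum is mostly Ltf, a gene of the gland list too, had an r of 0.81 with Bglap3 (rho 0.76). Cartilage genes had one of 0.58 (rho 0.62), and the remaining lists lay between -0.37 (olfactory epithelium) and 0.45 (fibroblast).

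Gene by gene, 12 of the 13 gland genes were higher and 1 lower in homo against het, with 0 called and 6 at an unadjusted p under 0.05 by edgeR, beside 2.48% of all genes, and 5 lay wholly above het, beside 2.04%. The median log2 change of this list was 0.76 against het and 0.89 against WT, beside 0.00 over all genes. Obp2b ranged from 607 to 4508 CPM over the libraries, and Lcn3 from 231 to 1377. Other genes of the list were close to 0 in homo against het, with a log2 change of -0.01 (SE 0.11) for the airway secretory protein Bpifa1 and of 0.07 (SE 0.11) for the gland aquaporin Aqp5. Klk14 and Dmbt1 belong to this list too. The list was chosen with earlier results of these data known, so its counts and its likeness to Bglap3 are descriptions only. The part of gland content of the dissection in the Bglap3 values was not tested.

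**Figure D5:**
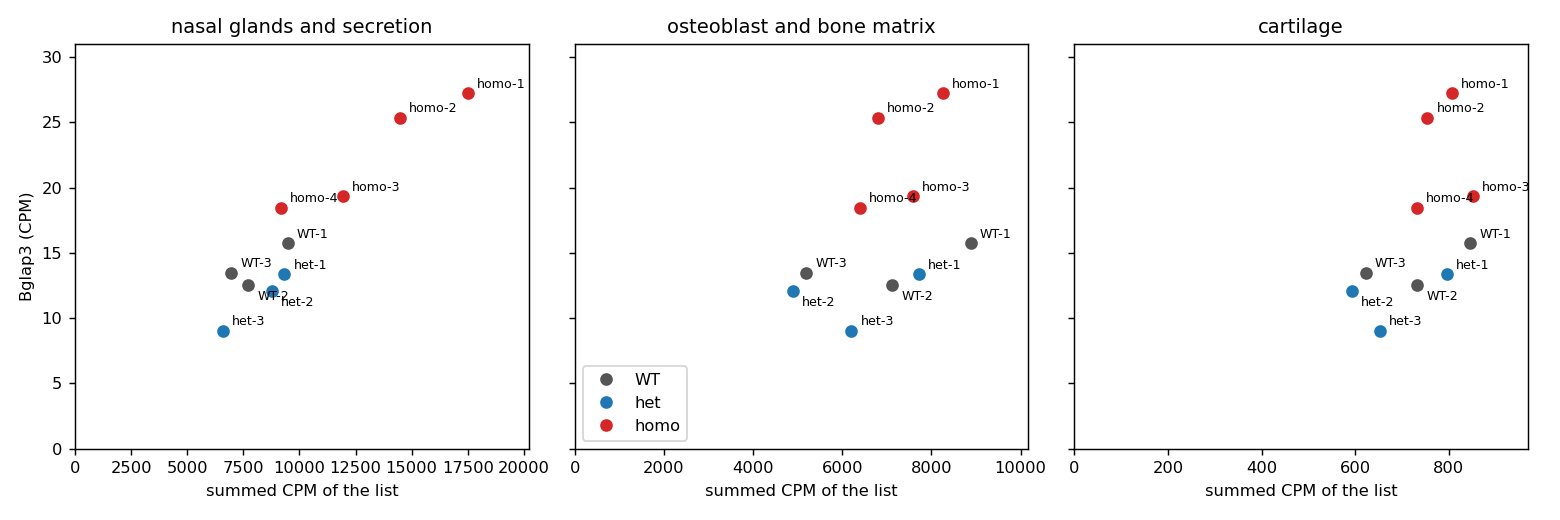
Bglap3 (CPM, vertical) against the summed CPM of 3 marker lists (horizontal) in the 10 libraries, coloured by genotype. Bglap3 and the gland sum are both lowest in het-3 and highest in homo-1. Bglap3 was selected on homo against het and is highest in the homo libraries, so these lie above the others in every panel.

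The other bone lists gave no called gene in any contrast by edgeR. Of 20 osteoblast and bone matrix genes 18 were higher and 2 lower in homo against het (median log2 0.20, 0 at an unadjusted p under 0.05), 10 were higher and 10 lower against WT (median -0.01), and 0 were higher and 20 lower in het against WT (median -0.16, 2 at an unadjusted p under 0.05). Col1a2, the partner chain of Col1a1, ranged from 2936 to 5325 CPM and Sparc from 1441 to 2797, so bone or connective tissue RNA was plentiful in every library. Of 18 cartilage genes present, from a list of 20, all 18 were higher in homo against WT and 17 in homo against het. Their medians were 0.26 and 0.27, and 2 and 1 genes had an unadjusted p under 0.05 by edgeR. Over all genes 50.0%, 49.7% and 49.8% were higher in homo against WT, homo against het and het against WT. At that unadjusted p, by edgeR, stood 2.41%, 2.48% and 1.92% of all genes. The sum of these 18 genes was 622 to 846 CPM in WT, 593 to 795 in het and 733 to 852 in homo, and single genes ranged from Col11a1 at 175 to 274 CPM through Col10a1 at 40.5 to 111 and Col9a1 at 37.9 to 46.5 to Matn1 at 0 to 2.41.

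Osteoclasts, the cells that resorb bone, left clear marks, with Ctsk at 187 to 331 CPM and Acp5 at 161 to 271. Their 11 genes summed to 569 to 836 CPM in WT, 642 to 810 in het and 674 to 882 in homo, with a median log2 change of 0.13 in homo against WT. In the marrow and blood list 4 of 14 genes, the globins Hba-a1, Hba-a2, Hbb-bs and Hbb-bt, had 0 counts in all libraries, although Alas2, the erythroid enzyme of haem synthesis, was at 8.84 to 32.1 CPM. The globin rows belong to pairs of near-identical copies, as Bglap and Bglap2 do, but Bglap and Bglap2 did have counts in every library. The other genes of this list were tested in 8 cases, with a median log2 change of -0.58 in homo against WT, 0 called by edgeR and 2 at an unadjusted p under 0.05, S100a8 (log2 -0.99, adjusted p = 0.414) and S100a9 (-0.61). In homo against het 4 were higher and 4 lower, with a median of -0.004. Mpo (0.20 to 0.64 CPM) and Camp (0.25 to 1.64 CPM) were low in every library. Lactoferrin, Ltf, at 223 to 954 CPM, makes up most of the sum of this list and belongs to the gland list as well. The 9 fibroblast genes gave a median log2 change of 0.09 in homo against WT and 0.17 in homo against het, and the 10 genes of the olfactory epithelium -0.04 and -0.01.

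The genes of the vitamin K cycle that osteocalcin depends on lay within narrow ranges. Ggcx, the carboxylase, ranged from 18.7 to 24.2 CPM, Vkorc1 from 16.9 to 22.2 and Vkorc1l1, its paralogue in vitamin K recycling, from 46.4 to 55.7. Mgp, the related matrix Gla protein that restrains calcification, ranged from 51.5 to 80.2 CPM. In homo against het the 4 log2 changes lay between -0.01 and 0.11, with 0 called by edgeR and 0 at an unadjusted p under 0.05.

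Around the copies, 18 genes within 200 kb on chromosome 3 were tested, of the 34 annotated there besides them. Homo against het gave 13 higher and 5 lower, with a median log2 change of 0.04, 0 called by edgeR and 0 at an unadjusted p under 0.05, and homo against WT gave 10 higher and 8 lower with a median of 0.02, again with 0 and 0. Paqr6, a progestin receptor family gene, ranged from 14.2 to 23.5 CPM, Smg5, of nonsense-mediated decay, from 157 to 179, and Lmna, the lamin A gene, from 58.6 to 90.1. The log2 change of homo against het was 0.16 (SE 0.14) for Paqr6, 0.01 (SE 0.08) for Smg5 and 0.13 (SE 0.12) for Lmna.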

How the data were processed

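The deposited raw counts per gene of 3 WT, 3 het and 4 homo libraries were used as they stand. Per the labels and the methods the authors made directional poly(A) libraries, trimmed reads with Trimmomatic 0.36, aligned them to mm10 with HISAT2 2.1.0 and counted them with featureCounts of Subread 1.6.2. The annotation, strand setting and treatment of multiply aligned reads were not given in the sources used here, which matters most for Bglap and Bglap2. A second table, of counts normalized by the authors with DESeq2, was not used. No column lacked a sample.

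In R 4.3.3, edgeR 4.0.16 filtered genes (filterByExpr, minimum count 10, minimum total 15), scaled libraries by TMM and fitted a robust quasi-likelihood model with genotype as the only term to all 10 libraries. Two-sided F tests were adjusted by Benjamini-Hochberg over 17197 genes, and adjusted p under 0.05 was called. The procedure was tested on simulated data. CPM are counts over library totals, and correlations with list sums used log2 of these CPM without a prior count. All other correlations used TMM-scaled log2 CPM with a prior count of 2. Likeness was ranked among genes with a mean CPM of at least 1. Chi-square per degree of freedom between libraries of a genotype was 13.9 to 47.0, and each was 1 replicate. Exon lengths and positions came from GENCODE M21. Alternatives were DESeq2 1.42.0, other scalings, filters and terms, and libraries left out.

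Named genes are the members, the marker lists, vitamin K genes, neighbours within 200 kb and the 5 genes most like Bglap3 and most like its copies. Members and lists were chosen with earlier results of these data known. Replicate numbers went together between het and WT libraries (r of deviations from the genotype means 0.34 to 0.47 for the 3 pairs), and not between homo and either group (r -0.24 to 0.18).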

Additional observations from a re-analysis of the deposited data

Results flagged for a closer look

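Within the 4 homo libraries 6 of 30 checked values had a library that stood apart from the other 3 by Dixon's test at the 95% level, which chance alone passes in about 1 of 20 groups. Bglap2 was at 36.0 CPM in homo-2 and at 49.5 to 52.0 CPM in the other 3 libraries. The same library stood low for Spire2 (35.5 CPM against 43.8 to 44.1), Atp6v0d1 (102 CPM against 127 to 128) and Drap1 (33.9 CPM against 44.9 to 46.0), which were picked for their likeness to Bglap and Bglap2 and so are not separate observations. Col1a1 was at 3357 CPM in homo-1 and at 2647 to 2689 CPM in the other homo libraries. Dmbt1 was at 837 CPM in homo-1 and at 342 to 393 CPM elsewhere in that group.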

How the results depend on the processing

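Of 757 values under alternatives, 703 were taken as the same. For log2 fold changes this meant direction and side of the threshold, and for counts of genes called a similar number. In homo against het the log2 change of Bglap3 stayed between 0.83 and 1.10 over the fits that left out 1 library, with adjusted p from 0.0183 to 0.284, and the call was lost in 8 of these 10, so that 0 to 1 members were called. The call was also lost with a minimum mean CPM of 1 (0.98, adjusted p = 0.0532), with a term for Y gene counts (0.96, adjusted p = 0.0508), with only the 2 genotypes compared (0.98, adjusted p = 0.0638) and, an alternative chosen after seeing the data, without both het-2 and homo-2 (0.95, adjusted p = 0.373), each of which gave 0 members. It was kept by DESeq2 (0.98, adjusted p = 7.2e-05), RLE scaling, library totals, no filter and Bglap and Bglap2 summed. The cause was not tested.

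With a replicate block, in which homo-4 has a number of its own and so adds nothing, 19 genes and 1 member were called in homo against WT (Bglap3, log2 0.79, adjusted p = 0.00784) and 24 genes in homo against het (Bglap3, 1.08). The homo numbers do not pair with the other groups, and in het against WT, where they went together, the block changed no call. Directions turned for small changes only. In homo against WT the block gave 0.069 for Col1a1, and without both het-2 and homo-2 the log2 changes were 0.014 for Bglap, 0.0050 for Col1a1 and 0.010 for Dmp1. In het against WT the block gave 0.0019 for Spp1, and without both libraries Spp1 was at 0.040. With 1 library left out the values in homo against WT ran from -0.144 to 0.0098 for Bglap, -0.213 to 0.287 for Col1a1, -0.271 to 0.277 for Ibsp, -0.308 to 0.120 for Dmp1 and -0.021 to 0.243 for Spp1. In homo against het they ran from -0.070 to 0.199 for Bglap and -0.084 to 0.241 for Bglap2, and in het against WT from -0.136 to 0.141 for Sp7, -0.124 to 0.147 for Spp1 and -0.0097 to 0.180 for Runx2. The log2 ratio of Bglap3 to Bglap and Bglap2 summed differed by 0.59 to 1.116 between homo and het with 1 library left out, and with all libraries by 0.92 over Bglap alone, 0.91 over Bglap2 alone and 0.71 over the sum of the 9 other members. The depth behind Bglap3 was 222 to 583 counts per library.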
